A study of Mus musculus with 9 samples.

Results

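Peritoneal B cells whose B cell receptor (BCR) had been switched, labelled B2B1, were compared with peritoneal B1 cells by RNA-seq. The comparison rests on 6 of the 9 libraries of the study, 3 B2B1 and 3 B1, and on the 11099 of 22178 genes that had a mean of at least 1 TPM over all 9. TPM values express each transcript's abundance per unit of length as a share of its library. B2B1 cells were isolated from the peritoneal cavity about 30 days after the switch was induced, under the strain label B1-8VH12/Vk4. B1 cells came from the same compartment and carry the same strain label, with no switch stated. The remaining 3 libraries are spleen B2 cells, whose strain label is VH12B1-8/Vk4. They are given as a reference level and enter the estimate of the spread. All 3 groups share the label C57BL/6 (backcrossed) for the genetic background and carry the Vk4 light chain label. The agent and recombinase behind the switch, the sorting gates, and the age and sex of the mice were not stated in the labels. Whether each library is a mouse of its own was not stated either, so the p-values reflect the spread among these libraries, which may be technical. Immunoglobulin and mitochondrial genes were left out of the genes picked by rank, but no filter removed them from the genes tested and counted. The receptor itself was not checked.

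B-1 cells are innate-like B cells that dominate the body cavities, renew themselves there and secrete natural antibody. Many of them carry receptors for self lipids such as phosphatidylcholine, which the VH12/Vk4 pair binds, whereas B1-8 is a heavy chain known for binding the hapten NP. B-2 cells are the conventional B cells that recirculate through spleen and lymph nodes. Strong or chronic BCR signalling is known to favour the B-1 fate, and CD5, a surface receptor that dampens BCR signalling, marks the B-1a subset.

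On the first principal component of the 6 peritoneal libraries (53.1% of the variance) the B2B1 libraries lay between −32.9 and −19.9 and the B1 libraries between 20.1 and 28.002. B1 library 2 stood apart on the second component (15.9%), at 29.4 against −13.3 to 1.34 for the others, and B2B1 library 1 on the third (13.2%), at 23.5 against −15.4 to 4.64. Xist, the RNA of the inactive X chromosome, was at 0.461, 0.355 and 180.4 TPM in B2B1 libraries 1 to 3 and at 212, 298 and 223 TPM in the B1 libraries, and the Y-linked Ddx3y was at 56.9 and 61.7 TPM in B2B1 libraries 1 and 2 and at 0.109 to 0.323 TPM in the other peritoneal libraries. The B1 libraries thus had no counterpart of B2B1 libraries 1 and 2 in these genes. B2B1 libraries 1 and 2 and library 3 therefore did not all come from 1 mouse, and these values do not settle this for B1. No read counts can be recovered from TPM, and sequencing depth is therefore unknown; the genes in the table total 894515 to 943043 TPM per library.

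B2B1 and B1 cells differed at many genes. limma's moderated test on log2(TPM + 1) called 2108 genes (19% of those tested) at a Benjamini-Hochberg adjusted p under 0.05. Of these, 769 were higher in B2B1 (6.93%) and 1339 lower (12.1%). Scaling each library by the median of its ratios to the other libraries moved this split to 1047 higher and 944 lower, and quantile normalization to 912 and 983, so the excess of lower genes depends on the scaling. The median log2 difference of all tested genes was −0.056, and −0.002 after median-of-ratios scaling. Differences of at least 1 on the log2 scale were called for 413 genes (3.72%), 209 higher and 204 lower. The 3 B2B1 values and the 3 B1 values did not overlap for 3963 genes (35.7%), and 2088 of the 2108 called genes were among them. All log2 differences below are B2B1 minus B1 on the log2(TPM + 1) scale, which understates the change of low genes.

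**Figure D1:**
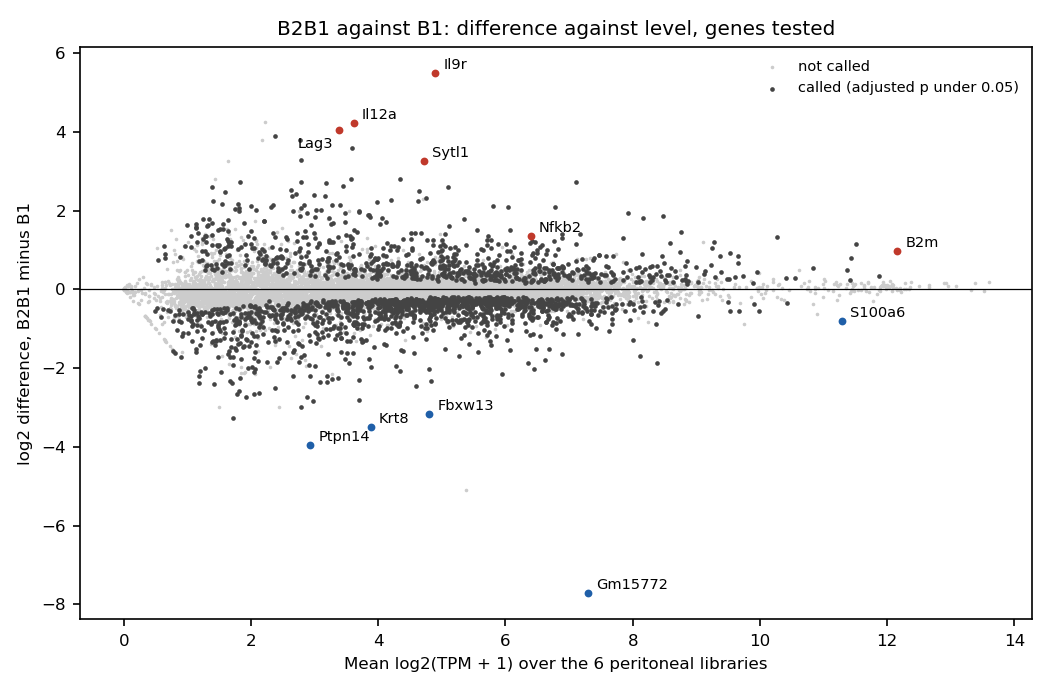
Log2 difference (B2B1 minus B1, vertical axis) against the mean log2(TPM + 1) over the 6 peritoneal libraries (horizontal axis) for the 11099 tested genes, one point each. Dark points are the 2108 called genes and coloured points the named ones; Il9r stands highest at 5.49, and Gm15772, at the bottom, is a copy of Rpl26 whose value is uncertain.

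Most large differences were called whichever library was left out, and many small ones were not. Each of the 6 libraries was left out in turn. The number of called genes then ran from 1341 (without B1 library 1) to 2445 (without B1 library 2). Of the 2108 calls, 1065 (50.5%) held in all 6 omissions, 425 of them higher and 640 lower. None of the 2108 changed sign in any omission, which was fixed in advance for the 2088 whose groups did not overlap. Of the 413 calls of at least 1 on the log2 scale, 349 (84.5%) held in all 6, 180 higher and 169 lower. Leaving out B2B1 library 1 and B1 library 2 together, the 2 libraries that stood apart, gave 2177 calls (882 higher, 1295 lower). Leaving out B2B1 libraries 1 and 2, the Xist-low ones, set B2B1 library 3 alone against the 3 B1 libraries and gave 675 calls (300 higher, 375 lower). In that comparison the lone library is assumed to vary like the other groups. With the Xist level as a factor in the model there were 842 calls, and 816 of the 2108 calls (38.7%) were kept. Xist and Ddx3y thus moved with part of the comparison, and the part of sex in the genes lost there was not tested.

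**Figure D2:**
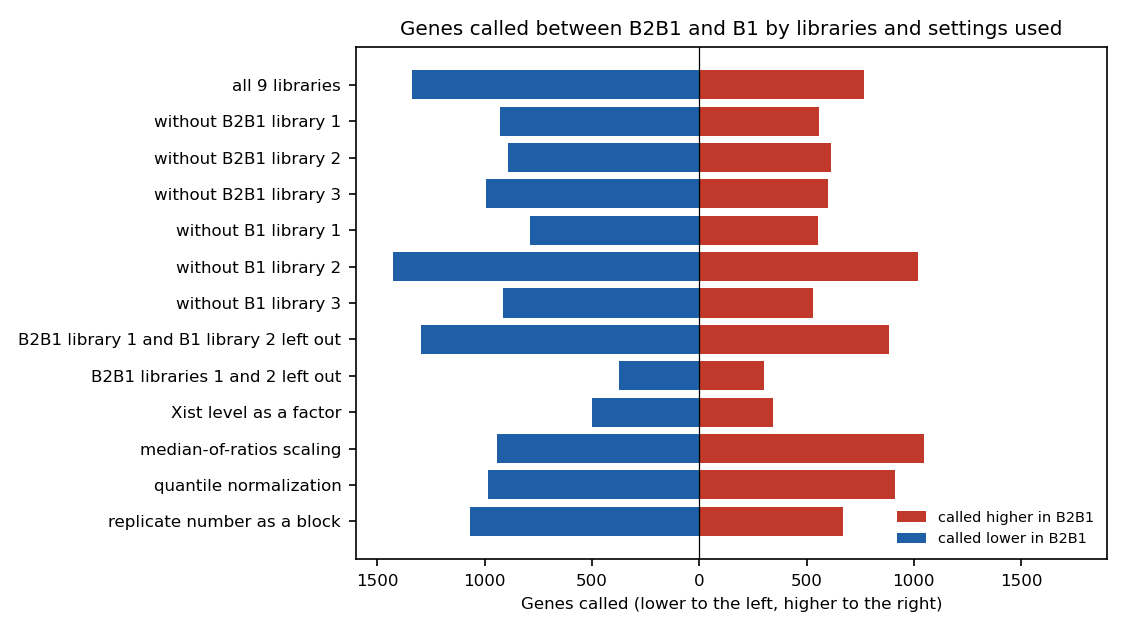
Number of genes called lower (left) and higher (right) in B2B1 with all 9 libraries, with single or paired libraries left out, and under other settings. Calls run from 675 with B2B1 library 3 alone to 2445 without B1 library 2.

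The B-1 markers did not move as 1 block. Of 22 listed markers, 7 were higher in B2B1, 4 were lower and 11 were not called (31.8% and 18.2%, against 6.93% and 12.1% of all genes; median log2 difference 0.077). The marker list was chosen with earlier results of these data known, so its shares are a description only. Cd5 (chr19:10717116-10739002 on GRCm38) was the marker with the lowest difference. It was at 1.32, 1.22 and 1.85 TPM in B2B1 libraries 1 to 3 and at 20.04, 22.9 and 13.4 TPM in the B1 libraries (log2 difference −2.99 ± 0.20 (SE), adjusted p = 8.46e-05). Every B2B1 value was below 2 TPM and every B1 value above 13, and the spleen B2 libraries were at 0.609 to 1.09 TPM. Il5ra, the receptor chain for interleukin 5, a survival cytokine of B-1 cells, was at 69.8, 47.6 and 64.3 TPM in B2B1 and 205, 135 and 191 TPM in B1 (log2 difference −1.53 ± 0.18 (SE), adjusted p = 0.000907). It was lower in all 3 B2B1 libraries than in any B1 library. Siglecg, a sialic acid receptor that restrains BCR signals in B-1 cells, was lower by a small margin (622 to 657 against 758 to 879 TPM, log2 difference −0.32, adjusted p = 0.00964). The calcium-binding protein gene S100a6 was abundant in both, at 1785 to 2049.6 TPM in B2B1 and 2828 to 3834 TPM in B1, and lower in B2B1 (log2 difference −0.80 ± 0.20 (SE), adjusted p = 0.0236). The call of S100a6 was lost without B2B1 library 2 or 3 or B1 library 1 or 3, adjusted p 0.0621 to 0.0795.

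Other B-1 markers were above the B1 level. Cd9, a tetraspanin of B-1 and marginal zone cells, was at 419, 336 and 334 TPM in B2B1 and 139, 141 and 155 TPM in B1 (log2 difference 1.31 ± 0.092 (SE), adjusted p = 8.62e-05). Spn, which encodes CD43, was at 60.3, 66.1 and 63.2 against 34.4, 37.5 and 29.1 TPM (log2 difference 0.89 ± 0.12 (SE), adjusted p = 0.00125). Neither gene's groups overlapped. The transcription factor genes Zbtb32 (611 to 628 against 366 to 458 TPM, log2 difference 0.56) and Bhlhe40 (15.4 to 17.2 against 3.66 to 6.48 TPM, 1.67) were higher too, as were Lgals1, the gene of galectin 1 (0.93), Pdcd1lg2, which encodes PD-L2 (1.13), and Nfatc1 (0.57). B2 cells held 0.981 to 1.66 TPM of Zbtb32 and 3.11 to 4.23 TPM of Spn. The 11 markers not called included Bhlhe41 (59.0 to 102 against 59.3 to 72.6 TPM), a regulator needed for B-1a cells, Pstpip2 (92.1 to 117 against 105 to 127 TPM) and Plac8 (3434 to 4215 against 3277 to 4031 TPM). Their groups overlapped. The others not called were Fcrl5, Tnfrsf13b, Ctla4, Sox5, Arid3a, Ptpn22, Anxa2 and Itgam, with log2 differences between −0.23 and 0.76. The call of Nfatc1 was lost without any 1 library but B1 library 3, adjusted p 0.0599 to 0.12.

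The 20 genes furthest below the B1 level were taken from called genes of at least 5 TPM over the peritoneal libraries whose groups did not overlap. Gene models named only by number (such as Gm15772, −7.71), immunoglobulin and mitochondrially encoded genes were left out. The 20 ran from −3.95 to −2.14, and all 20 calls held in each of the 6 omissions. Ptpn14 (chr1:189728268-189876695), a protein tyrosine phosphatase, was at 0.963, 0.584 and 1.31 TPM in B2B1 and 42.4, 14.6 and 38.5 TPM in B1 (log2 difference −3.95 ± 0.34 (SE), adjusted p = 0.000197). Krt8, an intermediate filament keratin, was at 6.21, 1.71 and 3.36 against 45.9, 54.7 and 45.2 TPM (log2 difference −3.49 ± 0.29 (SE), adjusted p = 0.00018). Fbxw13, of the F-box family, was at 6.42, 14.2 and 6.16 against 87.5, 98.5 and 65.0 TPM (log2 difference −3.16 ± 0.29 (SE), adjusted p = 0.000238). All 3 genes were clearly present in every B1 library and at or below 14.3 TPM in every B2B1 library. Among receptors, the Wnt receptor gene Fzd6 was at 1.98, 2.15 and 1.73 against 24.4, 17.5 and 18.9 TPM (log2 difference −2.84 ± 0.14 (SE), adjusted p = 9.42e-06). The ephrin receptor gene Ephb4 (−2.62) and the leukaemia inhibitory factor receptor gene Lifr (−2.36) were lower as well. B2 cells were at 0.468 to 0.559 TPM for Fzd6 and 13.7 to 19.8 TPM for Lifr. Enzyme and transport genes in this group were Pygl, a glycogen phosphorylase (−2.66), Abca1, which exports cholesterol (−2.45), the creatine kinase gene Ckb (−2.35), and Pde2a, which degrades cyclic nucleotides (−2.51). Prkar2b, a regulatory subunit of protein kinase A, was at 17.3, 9.10 and 10.03 against 32.8, 127 and 58.6 TPM (−2.33). Fkbp11, a chaperone of the secretory pathway, was at 0.715, 3.01 and 2.39 against 19.2, 20.9 and 14.4 TPM (−2.73), and F11r, a junctional adhesion molecule, at 2.83 to 3.78 against 12.6 to 29.0 TPM (−2.27). The transcriptional regulator genes Neurod4 (−2.29) and Lmo2 (−2.19), and B3gnt8, Amz1, Fam174b and Hepacam2 (−2.24 to −2.14) complete the 20 with Cd5.

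The 20 genes furthest above the B1 level ran from 2.36 to 5.49, and 18 of these calls held in all 6 omissions. Il9r (chr11:32187541-32200279), the interleukin 9 receptor, was at 224, 229 and 153 TPM in B2B1 and 4.09, 1.92 and 4.87 TPM in B1 (log2 difference 5.49 ± 0.25 (SE), adjusted p = 7.52e-06). It is listed among the follicular markers, and the B2 libraries were at 363 to 396 TPM. Il12a (chr3:68690644-68698547), which encodes the p35 chain shared by interleukins 12 and 35, was at 43.6, 42.3 and 75.7 against 2.69, 0.452 and 3.24 TPM (log2 difference 4.22 ± 0.38 (SE), adjusted p = 0.000234), with B2 at 46.3 to 55.7 TPM. The rule that chose the 20 genes required B2B1 and B1 values that did not overlap. The B2 levels of Il9r and Il12a were of the order of the B2B1 ones. Lag3 (chr6:124904361-124911705), an inhibitory receptor for MHC class II, was different, at 30.5, 31.0 and 75.0 against 1.82, 0.871 and 2.15 TPM (log2 difference 4.06 ± 0.34 (SE), adjusted p = 0.000187) and 0.410 to 0.942 TPM in B2. B2 cells were also low for Gstt1, a glutathione transferase (25.9, 27.9 and 9.32 in B2B1, 0.0724, 0.687 and 0.342 in B1, listed at 0 in the B2 libraries, TPM throughout, log2 difference 3.90). Ndrg1, a gene induced by hypoxia and stress, was at 42.7, 15.7 and 21.5 against 0.431, 0.898 and 1.25 TPM (log2 difference 3.796 ± 0.32 (SE), adjusted p = 0.00018). The scaffold gene Slc9a3r2 (3.58) and Sytl1, a Rab27 effector in vesicle transport (68.9 to 103 against 6.37 to 8.63 TPM, 3.25), followed. Regulators of small GTPases and kinases were among the 20: the Ras family gene Rras2 was at 27.6, 26.1 and 24.7 against 3.12, 3.45 and 3.62 TPM (log2 difference 2.63 ± 0.074 (SE), adjusted p = 3.43e-07), its spread within groups being small, and the Ras GTPase-activating gene Rasal1 was at 47.9 to 59.5 against 6.32 to 7.24 TPM (2.81). The phosphatase gene Dusp14 (2.73), the actin-linked Marcksl1 (2.61) and the ubiquitin ligase gene Cblc (2.36) belong here too. So do the receptor kinase gene Axl (2.53), the macrophage growth factor gene Csf1 (2.42) and Hspg2, which encodes perlecan (2.39). Serpinb8 (2.79), Serpinc1 (2.71), Serpina3f (2.502) and Serpina3g (2.73) encode serpins, and Gbp10 (3.28) a guanylate-binding protein. Serpina3f, Serpina3g and Gbp10 have near-identical relatives, so the split of reads between copies, and with it their values, is uncertain. The calls lost on leaving out 1 library were Serpina3f without B2B1 library 2 or 3 or B1 library 1 or 3 (0.0592 to 0.0726) and Csf1 without B1 library 3 (0.0605), with the adjusted p then reached in brackets.

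**Figure D3:**
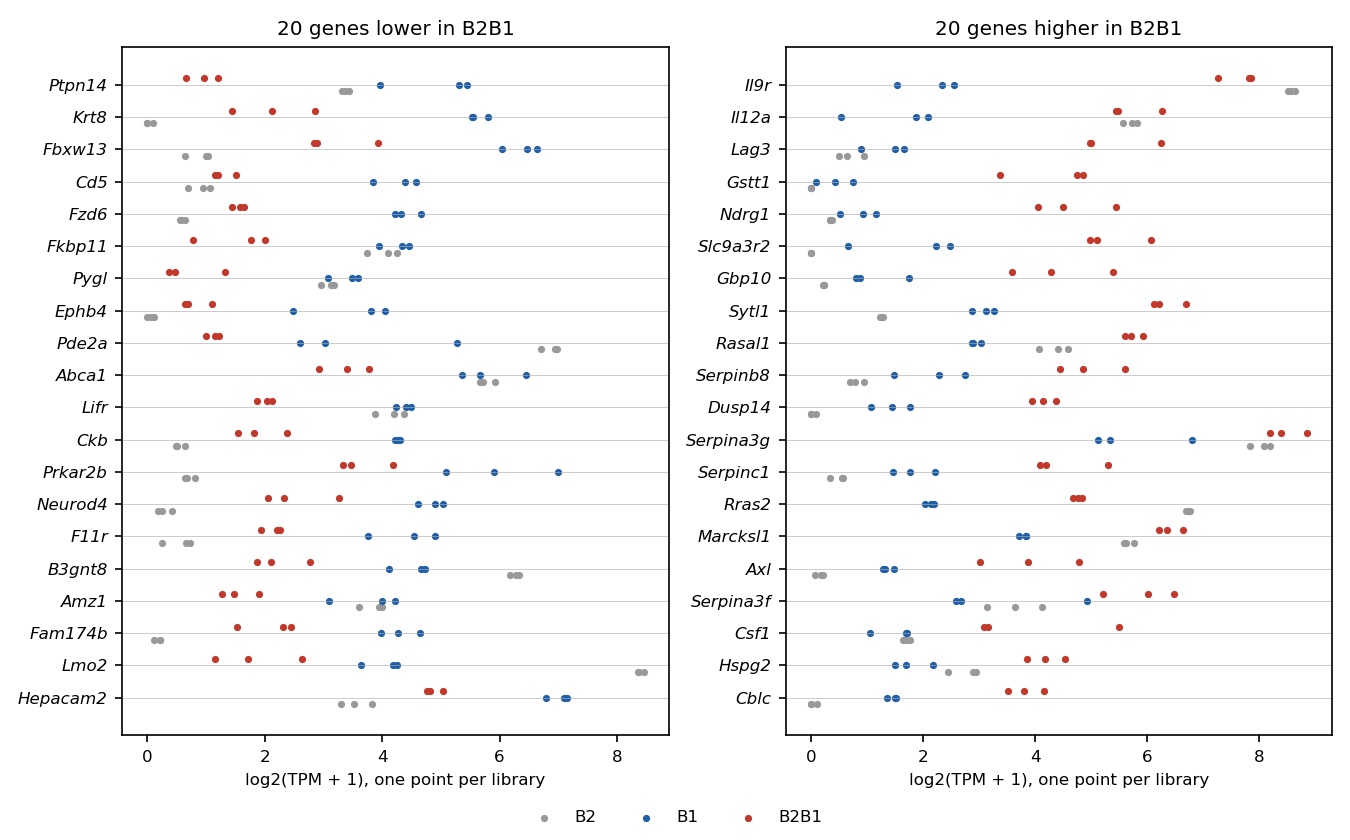
Log2(TPM + 1) in each library (horizontal axis, one point per library) for the 20 called genes with the lowest (left) and the 20 with the highest (right) difference. Numbered gene models, immunoglobulin and mitochondrially encoded genes were left out. B2B1 (red) and B1 (blue) points do not overlap for any of the 40 genes, as the rule that chose them required, while B2 (grey) lies on either side.

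MHC class I genes were among those with the largest gains in absolute TPM, with numbered gene models, immunoglobulin and mitochondrially encoded genes left out. B2m, the light chain of MHC class I, gained most and was at 7599, 5729 and 6049 TPM in B2B1 and 3194, 3410.3 and 3165 TPM in B1 (log2 difference 0.98 ± 0.10 (SE), adjusted p = 0.000474). H2-K1 (3638 ± 199 against 2113 ± 192 TPM, mean ± SD, n = 3, log2 difference 0.79) and H2-D1 (0.48) encode class I heavy chains and were higher as well. H2-Q5 was higher by 1.20, but the Q-region genes are near-identical and its value is uncertain. Tap1 (0.80) and Tap2 (0.42), the peptide transporter, and Nlrc5, the transactivator of class I genes, rose with them. Nlrc5 was at 131, 132 and 139.8 against 30.0, 39.6 and 24.7 TPM (log2 difference 2.08 ± 0.14 (SE), adjusted p = 8.46e-05), with B2 at 41.3 to 43.6 TPM. Outside class I, Ctss, a protease of antigen processing, was higher (0.66), while H2-Ob, a chain of the class II modulator H2-O (−0.55), and Icosl, a ligand for T cell help (−1.28), were lower. In the list of antigen presentation and costimulation genes, 4 of 18 were higher and 2 lower (22.2% and 11.1%, against 6.93% and 12.1% of all genes). The median log2 difference of the list was −0.0035. Other genes among the 10 largest gains in TPM were Rpl26, a ribosomal protein gene that can share reads with a processed copy and is second in that ranking (1.14), Cd24a, a surface glycoprotein (1434 to 2393 against 662 to 876 TPM, 1.33), the ferritin light chain gene Ftl1 (0.54), Lgals1, the cyclophilin gene Ppia (0.34) and Ms4a6c, of a family with close relatives (1.86).

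Beside S100a6, the genes that lost most in TPM under the same exclusions included the tetraspanin gene Cd37, at 1212, 1324 and 1139.6 TPM in B2B1 and 1629, 1475 and 1559 TPM in B1 (log2 difference −0.34 ± 0.069 (SE), adjusted p = 0.00976), with B2 cells at 1633 to 1716 TPM. The mitochondrial carrier gene Ucp2 (−0.38), Fgd2, an exchange factor for Cdc42 (−0.68), Cyp4f18, a cytochrome P450 (−1.28), and the B cell gene Fcrla (−0.87) were lower. Pdcd4, an inhibitor of translation, was at 144, 160.0 and 110.5 against 209.7, 508 and 218 TPM (−1.06), and Zfp36l2, which destabilises mRNAs, at 28.8, 58.1 and 44.4 against 338, 69.9 and 223 TPM (−2.02). Wdr92 was lower, with a log2 difference of −1.70, but it overlaps Pno1 on the other strand, and whether strand was used in counting is not stated. With 1 library left out, the threshold was missed by Ucp2 without B2B1 library 1 or 3 or B1 library 3 (0.0554 to 0.0708), Pdcd4 without B2B1 library 1 or 2 or 3 (0.0686 to 0.123) and Zfp36l2 without B2B1 library 1 or 3 or B1 library 1 or 3 (0.0637 to 0.0867), adjusted p in brackets.

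Components of BCR signalling were called in both directions. Of 22 genes, 2 were higher and 7 lower (9.09% and 31.8%, against 6.93% and 12.1% of all genes; median −0.16). Lower were, among others, the adaptor gene Blnk (−0.46), the exchange factor genes Vav1 (−0.29) and Rasgrp1 (−0.43), and the kinase gene Prkcb (−0.42). Malt1, a protease, was at 123, 135 and 132 TPM in B2B1 and 197, 188 and 225 TPM in B1 (log2 difference −0.64 ± 0.084 (SE), adjusted p = 0.0014). Its adaptor Bcl10 went the other way, at 139.6, 146 and 145 against 97.6, 88.1 and 108 TPM (log2 difference 0.55 ± 0.075 (SE), adjusted p = 0.00171). Neither Malt1 nor Bcl10 overlapped between groups. Rasgrp3, a Ras exchange factor, was higher (25.8, 14.8 and 18.0 against 7.15, 4.25 and 4.53 TPM, log2 difference 1.70), with B2 at 146 to 174 TPM. Among 15 inhibitory receptors and phosphatases, 2 were higher and 4 lower (13.3% and 26.7%). Lag3 and Cd72, a C-type lectin that recruits SHP-1 (63.4, 91.8 and 82.5 against 22.3, 39.2 and 22.2 TPM, 1.51), were higher. Cd5, Siglecg, Cd300a (−0.53) and Inpp5d, the lipid phosphatase SHIP1 (−0.32), were lower. With 1 library left out, the BCR signalling list counted 2 higher and 6 lower without B2B1 library 1 or 2 or B1 library 1 or 3. Without B1 library 2 it counted 2 higher and 10 lower. The call of Vav1 was lost without B2B1 library 1 or 2 or B1 library 1 or 3, adjusted p 0.0635 to 0.0859.

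Genes that respond to antigen split in both directions. Of 20 immediate early and antigen response genes, 4 were higher and 2 lower (20% and 10%, against 6.93% and 12.1% of all genes, list median 0.21). Egr3, a zinc finger factor induced by receptor signals, was at 27.1, 29.9 and 35.6 TPM in B2B1 and 6.11, 10.8 and 9.65 TPM in B1 (log2 difference 1.72 ± 0.18 (SE), adjusted p = 0.000488). Nr4a1, a nuclear receptor widely used as a reporter of antigen receptor signalling, was at 28.7, 34.8 and 31.5 against 10.6, 16.3 and 11.2 TPM (log2 difference 1.27 ± 0.16 (SE), adjusted p = 0.00108). The activation marker Cd83 (0.75) and Egr2 (0.98) were higher too. In contrast, the AP-1 gene Fosl2 was at 2.69, 3.04 and 3.24 against 12.02, 10.5 and 12.8 TPM (log2 difference −1.67 ± 0.18 (SE), adjusted p = 0.000588), and the antiproliferative Btg2 was lower (−0.52). With 1 library left out, this list counted 5 higher and 2 lower without B2B1 library 1, and 4 higher and 3 lower without B2B1 library 2. It counted 3 higher and 3 lower without B2B1 library 3 or B1 library 1. Without B1 library 2 there were 6 higher and 3 lower, and without B1 library 3 there were 3 higher and 2 lower. The call of Egr2 was lost without any 1 library but B1 library 2, adjusted p 0.0564 to 0.139.

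Among 34 B cell transcription factor genes, 5 were higher and 8 lower (14.7% and 23.5%, against 6.93% and 12.1% of all genes; median −0.15), and 6 and 5 after median-of-ratios scaling. Nfkb2 (chr19:46304320-46312385), which encodes the p100/p52 subunit of the non-canonical NF-kappaB pathway, was at 138, 134 and 128 TPM in B2B1 and 53.1, 49.6 and 52.6 TPM in B1 (log2 difference 1.35 ± 0.061 (SE), adjusted p = 7.52e-06). Its groups were far apart relative to their spread, and B2 cells held 245 to 273 TPM. Irf4 (0.44), Runx3 (0.48), Id3 (0.74) and Tcf3 (0.30) were higher by less. Runx2 was at 2.98, 2.44 and 2.70 against 8.62, 7.16 and 9.68 TPM (log2 difference −1.35 ± 0.16 (SE), adjusted p = 0.00085). The regulator Lmo2, at 1.22, 2.27 and 5.20 against 17.1, 18.1 and 11.4 TPM, was at 326 to 349 TPM in B2 cells. Irf8 was at 7.16, 26.9 and 42.5 against 72.4, 58.9 and 76.3 TPM (log2 difference −1.70 ± 0.49 (SE), adjusted p = 0.0424), and B2B1 library 1 held the lowest value. Pax5 (−0.37), Ebf1 (−0.58), Ets1 (−0.46), Runx1 (−0.34) and Bcl11a (−0.81), all factors of B cell identity or development, were lower by under 1 on the log2 scale. For this list, 1 library fewer gave 4 higher and 4 lower without B2B1 library 2, 5 higher and 2 lower without B1 library 1, 4 higher and 5 lower without B1 library 3. With 1 library left out, the threshold was missed by Pax5 without B2B1 library 1 or 3 or B1 library 1 (0.0577 to 0.0655), Ebf1 without any 1 library but B1 library 2 (0.0628 to 0.0829), Tcf3 without B2B1 library 2 or B1 library 1 or 3 (0.0504 to 0.0517), Irf8 without B2B1 library 2 or B1 library 1 or 2 or 3 (0.0588 to 0.107), Runx1 without B2B1 library 2 or B1 library 1 (0.0564 to 0.0605), Bcl11a without B2B1 library 2 or 3 or B1 library 1 (0.0556 to 0.0704), Ets1 without B1 library 1 or 2 or 3 (0.0563 to 0.0924) and Id3 without B1 library 3 (0.0503), adjusted p in brackets.

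Cytokines and their receptors held several of the widest differences. Of 13 cytokines and B cell regulators tested, 4 were higher and 1 lower (30.8% and 7.69%, against 6.93% and 12.1% of all genes, list median 0.44). Beside Il12a, Il10, the anti-inflammatory cytokine of regulatory B cells, was at 15.9, 2.23 and 19.0 TPM in B2B1 and 2.002, 0.879 and 1.49 TPM in B1 (log2 difference 2.09 ± 0.59 (SE), adjusted p = 0.0382). B2B1 library 2 was far below the other 2 and close to the B1 values. Ccl22, a chemokine for CCR4, was at 31.6, 25.2 and 19.1 against 3.54, 13.7 and 3.12 TPM (1.99), and Havcr1, which encodes TIM-1, at 9.66, 6.58 and 6.07 against 4.42, 2.64 and 2.64 TPM (0.998). Tigit was lower (−0.68). The counts of these genes became 3 higher and 0 lower without B2B1 library 2, 4 higher and 0 lower without B2B1 library 3, 2 higher and 0 lower without B1 library 1 or B1 library 3, 5 higher and 2 lower without B1 library 2. Leaving out 1 library put the adjusted p, in brackets, above the threshold for Il10 without any 1 library but B2B1 library 2 (0.0723 to 0.113), Ccl22 without B2B1 library 1 or 2 or B1 library 1 or 3 (0.0603 to 0.0782) and Tigit without B2B1 library 2 or 3 or B1 library 1 or 3 (0.0794 to 0.118).

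Of 22 cytokine and growth factor receptors, 8 were higher and 4 lower (36.4% and 18.2%, against 6.93% and 12.1% of all genes, list median −0.052). Il2rb, a chain of the interleukin 2 and 15 receptors, was at 24.6, 30.6 and 29.0 TPM in B2B1 and 6.81, 13.1 and 6.09 TPM in B1 (log2 difference 1.65 ± 0.23 (SE), adjusted p = 0.00193). The shared gamma chain gene Il2rg, which also serves interleukins 9 and 21, was higher by little (284 to 315 against 229.5 to 256 TPM, 0.31), as were Il27ra (0.40), Ifngr2 (0.44), Il10rb (0.45) and Ifnar2 (0.43). Il21r was higher by 0.95. Il6st, the gp130 chain that Lifr and the interleukin 6 receptor signal through, was at 82.9, 76.2 and 79.0 against 196, 154 and 180.0 TPM (log2 difference −1.14 ± 0.13 (SE), adjusted p = 0.000683). The ligand-binding chain Il10ra was at 57.5, 58.9 and 55.5 against 157, 111 and 116 TPM (log2 difference −1.13 ± 0.11 (SE), adjusted p = 0.000431). Both stood lower in every B2B1 library than in any B1 library, as Il5ra did. Ifngr1 was lower by a small amount (−0.21). Omitting 1 library, the receptors counted 5 higher and 3 lower without B1 library 1, and 6 higher and 3 lower without B2B1 library 1. They counted 6 higher and 4 lower without B2B1 library 2 or B1 library 3. Without B2B1 library 3 there were 8 higher and 3 lower, and without B1 library 2 there were 7 higher and 5 lower. In the TNF family, 3 of 15 tested were higher and 2 lower (20% and 13.3%). The ligand genes Tnfsf9, encoding 4-1BBL (15.9, 11.7 and 10.5 against 3.40, 2.64 and 4.23 TPM, 1.63), and Tnfsf8, encoding CD30L (6.44, 3.37 and 2.20 against 0.212, 0.623 and 0.573 TPM, 1.69), were higher, and so was the death receptor Fas (1.10). Cd27 (−1.07) and the BAFF receptor gene Tnfrsf13c (99.7 to 135 against 156 to 177 TPM, −0.49) were lower. The calls lost on leaving out 1 library were Il10rb without B2B1 library 1 or 2 or B1 library 1 (0.0516 to 0.0581), Ifnar2 without any 1 library but B2B1 library 3 (0.061 to 0.112), Ifngr1 without B2B1 library 1 or 3 or B1 library 1 or 3 (0.0578 to 0.0747), Fas without B2B1 library 1 or 3 or B1 library 1 or 3 (0.0572 to 0.0617) and Il21r without B1 library 1 or 3 (0.0559 to 0.0798), with the adjusted p then reached in brackets.

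Of 20 homing and chemokine receptors, 5 were higher and 2 lower (25% and 10%, against 6.93% and 12.1% of all genes; median −0.0066). Ccr1 was at 163, 92.6 and 109 TPM in B2B1 and 60.9, 68.1 and 58.2 TPM in B1 (log2 difference 0.91 ± 0.18 (SE), adjusted p = 0.00869). Gpr174, a receptor for lysophosphatidylserine, was at 20.6, 17.4 and 15.8 against 8.60, 4.87 and 6.08 TPM (log2 difference 1.36 ± 0.17 (SE), adjusted p = 0.00104). Cxcr3 (1.66), S1pr3 (0.78) and Selplg (0.26) were higher, and the prostaglandin receptor gene Ptger4 (−0.59) was among the lower. Of 11 integrin chains, 1 was higher and 2 lower (9.09% and 18.2%), close to the shares of all genes for so few members. The laminin-binding Itga6 was at 7.64, 5.99 and 5.82 against 17.9, 18.7 and 16.2 TPM (log2 difference −1.32 ± 0.12 (SE), adjusted p = 0.000285) and Itga4 was lower too (−0.52), while Itgb1 was higher (0.22). Among 15 tetraspanins, Cd9, Cd63 (1.60), Cd81 (0.39), Tspan2 (0.89) and Tspan3 (0.37) were higher and Cd37 and Tspan13 (−0.43) lower. Of 13 S100 proteins and annexins, Anxa5, which binds phosphatidylserine, was at 246, 178 and 198 against 95.4, 77.2 and 104 TPM (log2 difference 1.16 ± 0.14 (SE), adjusted p = 0.000877). Anxa4 (0.79) and S100a13 (0.34) were higher and S100a6 lower. For the homing receptors, 1 library fewer gave 3 higher and 2 lower without B2B1 library 2 or B1 library 1, 5 higher and 4 lower without B1 library 2. The counts of the integrins became 0 higher and 3 lower without B2B1 library 1 or B2B1 library 3, 0 higher and 2 lower without B2B1 library 2 or B1 library 1 or B1 library 3, 2 higher and 3 lower without B1 library 2. Omitting 1 library, the tetraspanins counted 2 higher and 2 lower without B2B1 library 1, 3 higher and 2 lower without B1 library 1 or B1 library 3. For the S100 and annexin list, 1 library fewer gave 3 higher and 0 lower without B2B1 library 2 or B2B1 library 3 or B1 library 1, 2 higher and 3 lower without B1 library 2, 2 higher and 0 lower without B1 library 3. With 1 library left out, the threshold was missed by S1pr3 without B2B1 library 1 or 2 or B1 library 1 or 2 (0.0742 to 0.124), Selplg without any 1 library but B1 library 2 (0.0621 to 0.13), Itgb1 without any 1 library but B1 library 2 (0.0636 to 0.119), Cd63 without B2B1 library 1 (0.0557), Tspan2 without B2B1 library 1 or 2 or B1 library 1 or 3 (0.0621 to 0.0691), Tspan3 without B2B1 library 1 or 3 or B1 library 1 or 3 (0.0646 to 0.0697) and S100a13 without B2B1 library 1 or 3 or B1 library 2 or 3 (0.0985 to 0.131), adjusted p in brackets.

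Interferon-stimulated genes lay above the B1 level with a large part from 1 library. Of 23 tested, 8 were called higher and 0 lower (34.8% and 0%, against 6.93% and 12.1% of all genes). The list median was 1.09, and the log2 difference was above 0 for 23 of 23. The other 15 were not called. Relative to the B1 mean, the median member was 2.05 higher on the log2 scale in B2B1 library 1, and 0.48 and 0.49 higher in B2B1 libraries 2 and 3. Irf7, the master factor of the interferon response, was at 56.1, 12.9 and 25.6 TPM in B2B1 and 6.77, 6.67 and 6.77 TPM in B1 (log2 difference 1.84 ± 0.41 (SE), adjusted p = 0.0153). Bst2, the tetherin gene, was at 184, 101 and 108 against 55.3, 65.1 and 68.8 TPM (0.996), and Ifit1 at 32.7, 7.29 and 9.79 against 2.34, 3.09 and 2.89 TPM (1.94). Isg15 (1.17), Oasl1 (1.33), Oas1a (1.94) and Oas2 (1.88) were also called. Oas genes have near-identical relatives, so their values are uncertain. B2 cells were at 59.8 to 75.9 TPM for Irf7. The list held 10 called genes without B2B1 library 1 and 1 with the Xist level as a factor. The counts of the list became 4 higher and 0 lower without B1 library 1, 5 higher and 0 lower without B1 library 3. Leaving out 1 library put the adjusted p, in brackets, above the threshold for Oas2 without B2B1 library 3 or B1 library 1 or 3 (0.0552 to 0.0934), Ifit1 without B1 library 1 (0.0514), Isg15 without B1 library 1 or 2 or 3 (0.068 to 0.118) and Oas1a without B1 library 1 or 3 (0.075 to 0.0851).

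The reference promoters of these genes, as held in RefSeq for GRCm38.p6, were searched for GAAANNGAAA, the core of the element bound by interferon response factors, on both strands in the 250 bases before the start, counting overlapping matches. The motif stood in 9 of the 17 tested members of the interferon list that had a promoter in the reference (52.9%), and in 4 of the 6 called higher (66.7%). It was in 280 of 8328 tested genes (3.36%), in 27 of 586 called higher (4.61%) and in 37 of 1028 called lower (3.60%). A match describes the letters only. Shown are 70 bases around the matches for the 4 called members that hold it and for B2m, 5′ to 3′ on the gene's strand, with the motif (or its reverse complement) in capitals. They lie at chr8:71537560-71537629 (minus strand), chr19:34640764-34640833 (plus), chr4:156200851-156200920 (minus), chr5:120907526-120907595 (minus) and chr2:122147518-122147587 (plus).
Bst2: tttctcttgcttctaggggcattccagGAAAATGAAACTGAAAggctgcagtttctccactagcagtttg
Ifit1: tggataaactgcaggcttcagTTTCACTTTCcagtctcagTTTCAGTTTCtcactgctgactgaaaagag
Isg15: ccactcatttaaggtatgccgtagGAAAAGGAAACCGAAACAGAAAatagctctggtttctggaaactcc
Oas1a: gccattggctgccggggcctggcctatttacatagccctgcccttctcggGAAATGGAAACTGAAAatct
B2m: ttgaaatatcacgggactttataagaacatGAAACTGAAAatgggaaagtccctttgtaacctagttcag

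Bst2, Ifit1, Isg15 and Oas1a hold overlapping or repeated matches, 2 or 3 each, and B2m a single one. Their first match begins between 139 bases (B2m) and 20 bases (Oas1a) before the start. All 5 were called higher in B2B1. For Bst2, Ifit1, Isg15 and Oas1a this was a condition of being shown, and B2m was added separately.

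Of 14 plasma cell and secretory genes, 5 were higher and 2 lower (35.7% and 14.3%, against 6.93% and 12.1% of all genes; median 0.17). Ell2, an elongation factor of antibody-secreting cells, was at 46.0, 35.6 and 44.6 TPM in B2B1 and 24.0, 21.1 and 22.9 TPM in B1 (log2 difference 0.86 ± 0.11 (SE), adjusted p = 0.00105). Irf4, Edem1 (0.49), Derl3 (1.11) and Creld2 (0.78) were higher, and Fkbp11 and Txndc5 (−0.45) lower. Omitting 1 library, the secretory list counted 5 higher and 1 lower without B2B1 library 2, 3 higher and 1 lower without B2B1 library 3 or B1 library 1, 3 higher and 2 lower without B1 library 3. Of 17 glycolysis genes, 8 were higher and 1 lower (47.1% and 5.88%, median 0.28). Pfkp, a phosphofructokinase, was at 39.0, 37.2 and 36.3 against 25.2, 25.4 and 23.3 TPM (log2 difference 0.59 ± 0.069 (SE), adjusted p = 0.000759). Hk1 (0.37), Gapdh (0.45), Pgk1 (0.48) and Ldha (0.45) were higher by under 0.5. The glucose transporter gene Slc2a1 went the other way, at 31.2, 45.5 and 36.7 against 65.5, 75.9 and 70.5 TPM (log2 difference −0.90 ± 0.12 (SE), adjusted p = 0.00167). For glycolysis, 1 library fewer gave 5 higher and 1 lower without B2B1 library 1 or B1 library 1. It gave 6 higher and 1 lower without B2B1 library 2 or 3 or B1 library 3. Of 21 cholesterol synthesis genes, 4 were higher and 0 lower (19.0% and 0%), among them Sqle (0.92), Fdft1 (0.46) and Mvd (0.38). The counts of cholesterol synthesis became 2 higher and 0 lower without B2B1 library 2, 1 higher and 0 lower without B1 library 1 or B1 library 3. In the list of lipid uptake and efflux (14 tested), the scavenger receptor gene Cd36 was higher, at 116, 51.8 and 34.7 against 10.1, 19.7 and 6.58 TPM (2.33). The efflux transporters Abca1, at 6.61, 12.8 and 9.56 against 86.4, 39.9 and 49.6 TPM, and Abcg1 (−0.88) were lower. Omitting 1 library, the lipid list counted 2 higher and 2 lower without B2B1 library 3, 2 higher and 3 lower without B1 library 2. The calls lost on leaving out 1 library were Derl3 without B2B1 library 1 or 3 or B1 library 1 or 3 (0.0772 to 0.0822), Txndc5 without B2B1 library 2 or 3 or B1 library 1 (0.0594 to 0.0655), Fdft1 without B2B1 library 2 or B1 library 1 or 3 (0.0568 to 0.0578), Creld2 without B2B1 library 3 or B1 library 1 or 3 (0.0573 to 0.0671) and Sqle without B1 library 1 or 3 (0.0601 to 0.0627), with the adjusted p then reached in brackets.

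Genes of cell death and division were described by 2 further lists. Of 18 survival and apoptosis genes, 3 were higher and 0 lower (16.7% and 0%, against 6.93% and 12.1% of all genes, list median 0.10). All 3 are pro-apoptotic genes. Bbc3, which encodes PUMA, was at 16.8, 18.5 and 16.5 TPM in B2B1 and 4.28, 6.11 and 8.14 TPM in B1 (log2 difference 1.38 ± 0.20 (SE), adjusted p = 0.00203). Pmaip1, which encodes NOXA, was at 35.8, 43.9 and 31.1 against 12.8, 7.54 and 21.7 TPM (1.43), and Bax was higher by 0.44. For the survival list, 1 library fewer gave 7 higher and 1 lower without B1 library 2. Of 22 DNA replication and mitosis genes, only Tk1 was called (0.99, adjusted p = 0.0315), while the median was 0.41. B1 library 2 stood above the other B1 libraries for these genes. Relative to the B1 mean, its median member was at 0.74, against −0.38 and −0.38 in B1 libraries 1 and 3 and 0.95, 0.25 and 0.15 in the B2B1 libraries. The counts of the replication list became 0 higher and 0 lower without B2B1 library 1 or B2B1 library 2 or B1 library 1 or B1 library 3, 13 higher and 0 lower without B1 library 2. Without B2B1 library 1 and B1 library 2 together, 16 of 22 were higher. Of 20 cytosolic ribosomal protein genes, 1 was called (Rpl3, 0.24), with a median of 0.072. Without B1 library 2, 3 of these 20 were called higher and 0 lower. With 1 library left out, the threshold was missed by Tk1 without B2B1 library 1 or 2 or B1 library 1 or 3 (0.0692 to 0.0929) and Rpl3 without B2B1 library 2 or 3 or B1 library 1 or 3 (0.0904 to 0.12), adjusted p in brackets.

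**Figure D4:**
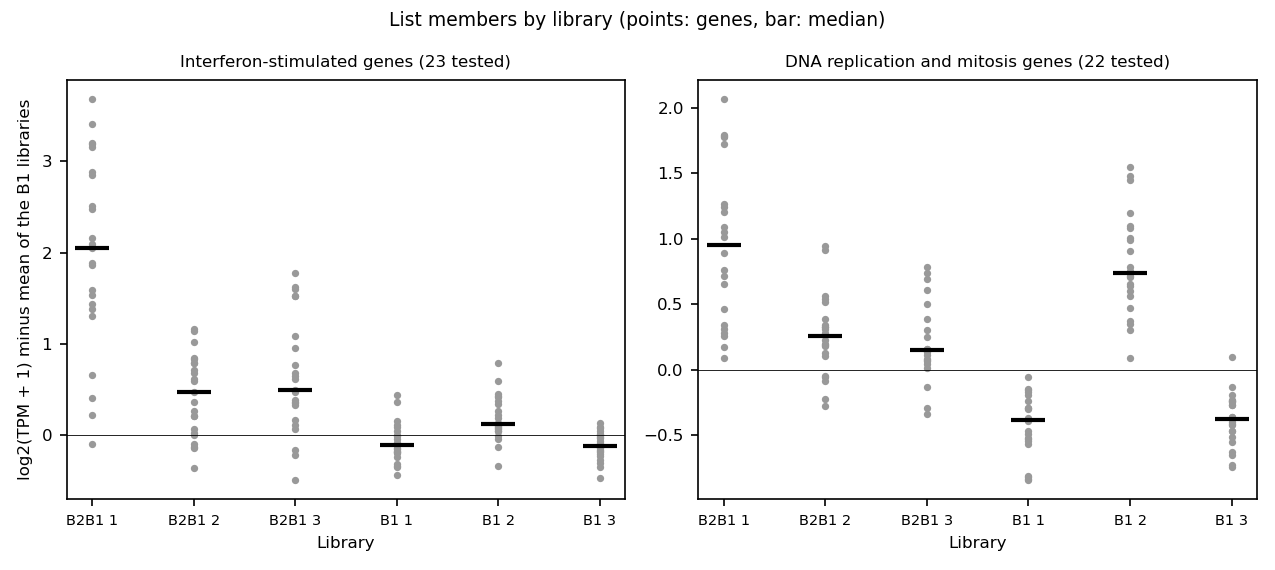
Log2(TPM + 1) minus the mean of the B1 libraries for each tested interferon-stimulated (left) and DNA replication and mitosis gene (right), by library; points are genes and bars the list median. Interferon-stimulated genes are highest in B2B1 library 1 (median 2.05), and replication genes in B2B1 library 1 (0.95) and B1 library 2 (0.74).

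Sensors of microbial products showed a single large difference. Of 19 Toll-like and Nod-like sensors, 3 were higher and 2 lower (15.8% and 10.5%, against 6.93% and 12.1% of all genes). Nlrc5, described above with MHC class I, belongs to this family. Cd180, which modulates Toll-like receptor signals in B cells, was at 335, 295 and 277 TPM in B2B1 and 214, 160.5 and 193 TPM in B1 (log2 difference 0.68 ± 0.12 (SE), adjusted p = 0.00608), and Tlr9 was higher by 0.37. Nod2, a sensor of bacterial cell wall fragments, was at 12.7, 12.4 and 11.1 against 24.2, 18.1 and 21.2 TPM (−0.76), and Nod1 was lower as well (−0.64). Omitting 1 library, the sensors counted 2 higher and 1 lower without B2B1 library 1 or B1 library 1, 3 higher and 1 lower without B2B1 library 3. Leaving out 1 library put the adjusted p, in brackets, above the threshold for Tlr9 without B2B1 library 1 or 2 or B1 library 1 or 2 (0.101 to 0.135) and Nod1 without B2B1 library 1 or 3 or B1 library 1 (0.0582 to 0.0598).

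Of 11 follicular B cell markers, Il9r was higher and 4 were lower (9.09% and 36.4%, against 6.93% and 12.1% of all genes, list median −0.15). Fcer2a, which encodes CD23, was at 2.40, 1.91 and 1.66 TPM in B2B1 and 10.7, 11.1 and 5.96 TPM in B1 (log2 difference −1.74 ± 0.20 (SE), adjusted p = 0.000683), and B2 cells were at 1112 to 1283 TPM. The complement regulator Cd55 was at 60.2, 68.1 and 54.3 against 158, 125 and 135 TPM (log2 difference −1.18 ± 0.11 (SE), adjusted p = 0.000288), and the complement receptor Cr2 (−1.05) and Icosl were lower too. These 4 genes stood lower in B2B1 than in B1, and both groups were far below B2. Of 12 marginal zone markers, 3 were higher and 2 lower (25% and 16.7%). Dtx1, a target of Notch2, was at 130.1, 166 and 190.0 against 81.9, 66.1 and 90.7 TPM (log2 difference 1.01 ± 0.15 (SE), adjusted p = 0.00221), while Notch2 itself was at 62.0, 63.5 and 56.1 against 92.9, 82.3 and 82.9 TPM (log2 difference −0.50 ± 0.075 (SE), adjusted p = 0.00273). S1pr3 and Cd36, listed above, were higher and Tm6sf1 lower (−0.88). The call of Cr2 was lost without B1 library 1, adjusted p 0.0617.

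**Figure D5:**
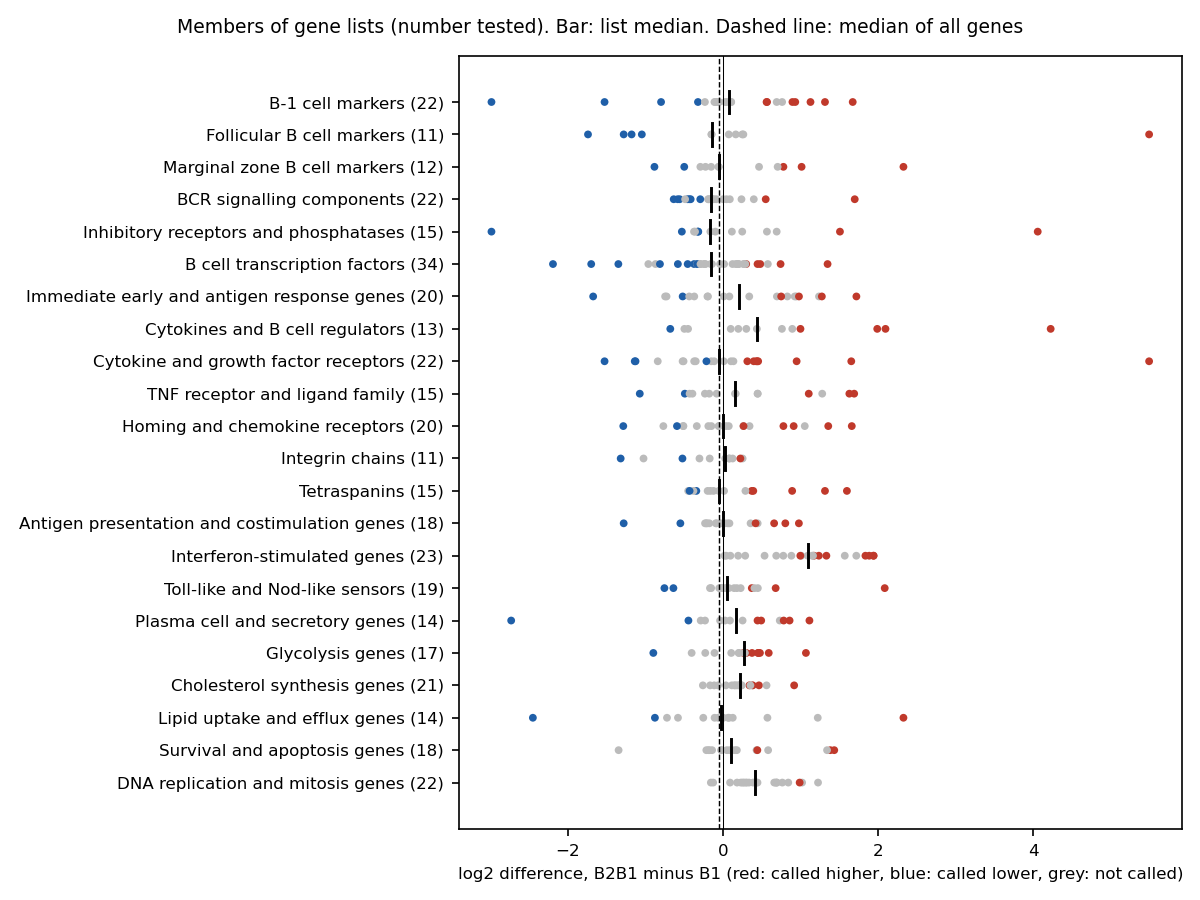
Log2 difference (B2B1 minus B1, horizontal axis) of each tested member of 22 gene lists, one row per list with the number tested in brackets; red points were called higher, blue lower, grey not called, and the bar is the list median. Of the 22 lists drawn, the interferon-stimulated one has the highest median (1.09), while the all-gene median (dashed) is −0.056.

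A signature of 28 genes was deposited beside the gene table, and how the submitters chose it is not stated. Of the 25 members tested here, 3 were higher in B2B1 than in B1, 6 lower and 16 not called. Over all genes, 6.93% were higher and 12.1% lower. Higher were Zbtb32, Gpr55 (117, 98.6 and 99.0 against 66.6, 58.6 and 68.9 TPM, 0.69) and Cd300lf (0.71). Lower were Tbc1d9 (−0.68), Cpm (−1.03), Fcer2a, Icosl, Dennd3 and Neurl3. Dennd3 was at 0.336, 0.484 and 0.462 TPM in B2B1, 11.3, 3.57 and 10.3 TPM in B1 and 77.0 to 83.2 TPM in B2 (log2 difference −2.59 ± 0.32 (SE), adjusted p = 0.000951). Neurl3 was at 6.46, 4.99 and 4.95 against 16.6, 12.8 and 14.3 TPM, with 244 to 265 TPM in B2 (log2 difference −1.27 ± 0.11 (SE), adjusted p = 0.000241). Members not called included Lysmd2 (38.9 to 43.0 against 36.4 to 39.8 TPM, with 1.35 to 1.67 TPM in B2) and Ahr, the aryl hydrocarbon receptor gene (11.1 to 15.9 against 9.16 to 14.3 TPM). In B2B1 library 3 Lrrk2 reached 10.5 TPM against 2.13 to 2.70 TPM in B1, and the gene was not called over all libraries (adjusted p = 0.164). With 1 library left out, the threshold was missed by Cd300lf without B2B1 library 2 or 3 or B1 library 1 or 3 (0.0678 to 0.0712), Cpm without B2B1 library 2 or 3 (0.0504 to 0.0562) and Tbc1d9 without B1 library 2 or 3 (0.0539 to 0.0771), adjusted p in brackets.

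Of 79 markers of other cell types in the table, 63 were under 5 TPM in all 6 peritoneal libraries. The other 16 were 7 macrophage, 3 T cell and 2 keratin genes, Hba-a2 and Pf4, Ccr9 and Pecam1. Ccr9, of the dendritic cell list, was at 27.8, 25.6 and 19.0 TPM in B2B1 and 43.4, 25.5 and 37.0 TPM in B1, and Pecam1, of the stroma list, at 65.2, 70.9 and 48.4 against 82.5, 57.1 and 58.2 TPM; neither was called. In bulk samples, fewer cells of a type and less RNA per cell cannot be told apart. Pan-B genes were abundant in every library, summing to 9447 to 10563 TPM in B2B1 and 9312 to 11588 TPM in B1 over 8 genes, with Pax5 (−0.37) and Blnk among those lower in B2B1. The 16 macrophage markers summed to 339, 144 and 166 TPM in B2B1 and 96.7, 134 and 113 TPM in B1. Icam2 alone gave 60.1 to 74.6 TPM of these sums and was at 140.3 to 147 TPM in B2. Without it the sums were 278, 73.1 and 102 TPM in B2B1, 24.9, 59.7 and 52.4 TPM in B1 and 2.41 to 3.71 TPM in B2. Emr1, which encodes F4/80, was at 52.0, 39.9 and 40.1 against 19.7, 13.6 and 20.9 TPM (1.25), C1qa at 7.77, 1.94 and 4.39 against 0.0697, 1.21 and 1.76 TPM (1.47), and Lyz2 at 181, 22.3 and 44.5 against 1.22, 30.9 and 21.6 TPM. B2B1 library 1, which also had the highest interferon-stimulated genes, held the most of the macrophage markers, and their part in its differences was not tested. Among 10 T cell markers, Cd3g was at 0.260, 0.346 and 0.512 against 10.7, 6.62 and 6.12 TPM (−2.65), Cd3d was lower (−0.97) and Lck higher (0.51). Cd3e, a defining chain, was at 0 to 0.0787 TPM in all 6 libraries. NK, neutrophil and erythroid markers had no call among their tested members (1, 1 and 2), dendritic cell markers none of 4, and mast cell markers had no member tested. Of 13 mesothelium and stroma markers, Krt8 and Krt18 (16.5, 4.19 and 7.65 against 25.9, 16.5 and 33.2 TPM, −1.45) were lower, while Msln, Upk3b, Wt1 and Krt19 were at 0 in every library. For the macrophage markers, 1 library fewer gave 1 higher and 0 lower without B2B1 library 1 or B2B1 library 3 or B1 library 1 or B1 library 2. The counts of the T cell markers became 1 higher and 1 lower without B2B1 library 1 or B1 library 3, 0 higher and 1 lower without B2B1 library 2 or B1 library 1 or B1 library 2, 0 higher and 2 lower without B2B1 library 3. Omitting 1 library, the mesothelium markers counted 0 higher and 1 lower without B2B1 library 2 or B2B1 library 3 or B1 library 1 or B1 library 3. Leaving out 1 library put the adjusted p, in brackets, above the threshold for Pax5 without B2B1 library 1 or 3 or B1 library 1 (0.0577 to 0.0655), C1qa without B2B1 library 1 or 3 or B1 library 1 or 2 (0.0561 to 0.123), Cd3d without any 1 library but B2B1 library 3 (0.0617 to 0.0966), Lck without B2B1 library 2 or 3 or B1 library 1 or 2 (0.0512 to 0.114) and Krt18 without B2B1 library 2 or 3 or B1 library 1 or 3 (0.0885 to 0.112).

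Several large differences were also present in B2B1 library 3, the one that matched B1 in Xist. The B2B1 and B1 values of the genes given here did not overlap, so their direction in that library was fixed in advance. B2B1 library 3 alone gave log2 differences from B1 of 5.12 for Il9r (adjusted p = 0.00118), 4.89 for Lag3 (0.00118), 4.76 for Il12a (0.00551) and 1.29 for Nfkb2 (0.00118). For Cd5 the value was −2.77 (0.00491), for Fzd6 −2.95 (0.00118) and for Cd9 1.20 (0.00148). All of these kept their call. Pde2a (−2.64, 0.15), Prkar2b (−2.53, 0.0606), Zbtb32 (0.59, 0.13) and S100a6 (−0.88, 0.161) kept their direction and missed the threshold there.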

How the data were processed

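RNA-seq libraries of 3 B2B1, 3 B1 and 3 B2 samples were grouped by their labels. RNA was extracted with an RNeasy Micro kit and made into polyA libraries with the TruSeq RNA kit v2, per the labels' protocols. The tools named are CASAVA 1.8.2 and kallisto, with the build mm10, per the submitters' processing notes. Which kallisto version and transcript set were used, and how transcripts were summed, is not given in the sources. The deposited values are TPM, made by the authors, for 22178 gene symbols. TPM keep no read counts, so no count model, counting interval or depth can be given, and each value is relative to the rest of its library.

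Genes with a mean of at least 1 TPM over the 9 libraries (11099) were analysed as log2(TPM + 1) with limma 3.58.1 in R 4.3.3 (lmFit, contrasts.fit, eBayes with trend). One model over all 9 libraries had 1 mean per group, 6 residual and 2.92 prior degrees of freedom. P-values are two-sided and Benjamini-Hochberg adjusted over all 11099 genes, and a gene was called under 0.05. The smallest p that an exact permutation test allows for 3 libraries per group is 0.1, so none was used. The script was tested on simulated data. Symbols were matched to GENCODE M21 on GRCm38 (10584 of 11099 tested symbols), which gave the coordinates, and promoters came from RefSeq. Python 3.11.15 and matplotlib 3.10.9 drew the figures.

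Named genes were the 20 highest and 20 lowest called log2 differences (at least 5 TPM over the peritoneal libraries, groups not overlapping), the 10 largest TPM changes in each direction, the B-1 marker list, and from each of 34 gene lists the 6 members with the smallest adjusted p. Numbered gene models, immunoglobulin and mitochondrially encoded genes were left out of the rankings by log2 difference and by TPM. Other list members, signature members and the genes named in the closing section were picked after their values were seen. The members and lists were chosen with earlier results of these data known. The lists cover the B cell subsets, signalling, regulators, receptors, metabolism, cell death and division named in the report, ribosomal proteins, sex-linked genes and markers of other cells. Of 9 sex-linked genes, none passed limma's test over all libraries, a test in which B2B1 mixes Xist-low and Xist-high libraries. Without B2B1 library 3, which is Xist-high, 1 was called higher and 1 lower, and 1 was called lower with only the peritoneal libraries and with the replicate block. Of the 40 genes at the 2 ends of the ranking, 10 overlap an annotated gene on the other strand, and use of strand in counting is not stated. Results for a few list members are not reported here. Alternatives covered pseudocounts of 0.1 and 0.5, filters, scalings, libraries left out, library weights, the variance trend, a replicate block and Xist as a factor.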

Additional observations from a re-analysis of the deposited data

How the results depend on the processing

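Other pseudocounts, filters, scalings, library weights and leaving out the variance trend kept the total of 2108 called genes within 1.5 times (1817 to 2111), and so did omitting B2B1 library 1 with B1 library 2 (2177). With only the 6 peritoneal libraries in the model, 1129 genes were called (448 higher, 681 lower). With the Xist level as a factor there were 842 (342 higher, 500 lower), and with B2B1 libraries 1 and 2 left out 675 (300 higher, 375 lower); both have fewer libraries or degrees of freedom behind them. Leaving out single libraries gave 1341 to 2445 calls, 531 to 1019 higher and 789 to 1426 lower. Calls of at least 1 on the log2 scale ran from 326 to 514, except 275 among the 9070 genes with a mean of at least 5 TPM, and from 369 to 514 over single omissions. None of the 2108 called genes changed sign under any setting. For genes whose groups did not overlap, leaving out libraries could not change the sign. Of 516 genes followed, Zfp36, which was not called, was above B1 in B2B1 library 3 alone (0.55, adjusted p = 0.0112) and below it over all libraries, and the cause was not tested.

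Deviations from the group means were little correlated between same-numbered B2B1 and B1 libraries (r across genes −0.058, 0.0077 and 0.073). Between differently numbered ones r ran from −0.068 to 0.060. Whether the numbers stand for a shared batch or day cannot be told from these values. With the replicate number as a block, 1737 genes were called (670 higher, 1067 lower, 408 of at least 1).

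Depth behind the TPM is unknown, and no B1 library was Xist-low, so B2B1 libraries 1 and 2 had no counterpart.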

Other observations

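Rpl26, a ribosomal protein gene, stood out among its family. It was at 4219.5, 4470.2 and 4265 TPM in B2B1 and 2025, 1962 and 1877 TPM in B1 (log2 difference 1.14), while Gm15772, a processed copy of it, was at 11.2, 10.3 and 8.22 against 2369, 2244 and 2187 TPM (−7.71). The B2 libraries were at 3836 to 4053 and 5.73 to 7.91 TPM. Summed, the 2 came to 4328 ± 134 TPM in B2B1, 4222 ± 166 TPM in B1 and 3947 ± 108 TPM in B2 (mean ± SD, n = 3). The copies are near-identical and can share reads, so neither value alone is certain. The pair was chosen after its values were seen.

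Neighbours of 2 leading genes were looked at after the values were seen. Within 300 kb of Cd5, 13 genes were tested, of which 3 were lower in B2B1 (Cd5, Vps37c and A430093F15Rik) and 3 higher (Slc15a3, Tmem132a and Sdhaf2). A430093F15Rik was at 1.29, 0.892 and 1.803 TPM in B2B1 and 8.06, 7.26 and 6.22 TPM in B1 (−1.83). Slc15a3 and Tmem132a overlap on opposite strands. Within 150 kb of Gstt1, 11 genes were tested and 6 were higher (Gstt1, Gstt2, Gstt3, Ddt, Derl3 and Smarcb1), with 0 lower. Gstt3 was at 46.8, 41.0 and 28.4 against 14.5, 11.6 and 14.7 TPM (1.42) and Gstt2 at 65.3, 59.6 and 56.4 against 30.1, 30.1 and 21.9 TPM (1.13). Of all tested genes, 6.93% were called higher and 12.1% lower. The calls lost on leaving out 1 library were Vps37c without B2B1 library 1 or 2 or B1 library 1 (0.0516 to 0.0615), Sdhaf2 without any 1 library but B2B1 library 2 (0.0516 to 0.0864), Derl3 without B2B1 library 1 or 3 or B1 library 1 or 3 (0.0772 to 0.0822) and Smarcb1 without B2B1 library 1 or 3 or B1 library 1 or 3 (0.0694 to 0.0849), with the adjusted p then reached in brackets.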
